A study of Danio rerio with 2 samples.

Results

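Places with 3 or more neighbouring called peaks of RARaa, a zebrafish receptor for retinoic acid (RA), were described from a chromatin immunoprecipitation and sequencing (ChIP-seq) experiment. The peak list was reduced to distinct intervals, the intervals on chromosomes 1 to 25 were ordered by their midpoints, and successive midpoints at most 10000 bp apart were joined. Of 4547 intervals, 345 fell into 80 groups of 3 or more. Another 532 formed pairs and 3670 stood alone. Positions alone chose these 80 groups among the called peaks, so the height of the intervals was not used in joining. Each interval had nevertheless passed the peak call. A later split of the groups by the signal of the control library did not rest on positions.

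The ChIP chromatin came from zebrafish embryos that had been injected with mRNA for RARaa carrying a myc tag, grown in E3 medium and treated with RA for 1 hour. It was pulled down with an antibody against myc and gave 1 RARaa ChIP library. The other library, the input, was made from chromatin of the same embryos set aside before the pulldown, so both libraries share the injection, the RA treatment and the fixation in 1.85% PFA for 10 minutes. The labels give the stage as 10.5 hours post fertilization (hpf) with RA in the hour before collection, whereas the methods of the study start the RA treatment at the labelled stage. The receptor was supplied by injected mRNA and not by its own gene, many embryos were pooled, and the cell types of the embryo cannot be told apart in these data. The ChIP library kept 39480982 of 48809259 tags after duplicates were removed, and the input kept 51506879 of 54439579. There was 1 library of each kind, so no value carries an error between batches of embryos and no test was made.

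RA acts on genes through nuclear receptors. A retinoic acid receptor (RAR) pairs with a retinoid X receptor (RXR) and binds DNA at retinoic acid response elements, which are short repeated motifs in promoters and enhancers. Hox genes, which lie in clusters and give cells their position along the head to tail axis, are classical targets of RA, and several genes that break down RA or remove its precursors are switched on by RA itself. Genes of this kind often carry more than 1 response element.

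For each interval, the pileup is the number of ChIP tags, extended to 200 bp, that cover the summit. The fold enrichment is the ratio of that pileup to the local input background, each with 1 tag added, and the background in tags was recovered from both. Intervals with −log10 q above 5 are called strong. A group was placed at raised input signal when the median background of its intervals reached 2 times the genome-wide level of 5.64 tags, that is 11.3 tags, and at low input signal otherwise. This gave 61 groups at low input signal, with 227 intervals on 22 chromosomes, and 19 groups at raised input signal, with 118 intervals on 12 chromosomes. No group was found on chromosomes 6 and 14. The number of groups depended on how neighbours were joined, with 134 at a distance of 20 kb and 49 when intervals less than 1 kb apart were first merged. The intervals given beside pileups and folds of single sites are exact 95% Poisson intervals, which cover counting error only and take the background as fixed.

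The groups at low input signal held high fold enrichments. Their 227 intervals had a median fold enrichment of 5.80 (95% interval 5.11 to 6.47) and ranged from 2.28 to 26.5. Strong intervals numbered 198 of 227, or 87.2% (95% Wilson interval 82.3 to 91.0%), where 60.5% of all 4547 intervals were strong. A fold enrichment of at least 4 was found at 167 of them (73.6%), against 44.5% of all intervals, and of at least 10 at 56 of them (24.7%, 19.5 to 30.7%), against 6.93% of all intervals. Every one of these groups held a strong interval, and in 40 of the 61 all intervals were strong. A site with a fold enrichment of at least 10 was present in 34 of the 61 groups.

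The 118 intervals at raised input signal were lower in each of these measures. Their median fold enrichment was 1.90 (1.78 to 2.02), and 52 of them were strong (44.1%, 35.4 to 53.1%). Only 6 reached a fold enrichment of 4 and 1 reached 10. The median pileup was 49 tags at low input signal, with a range from 16 to 242, and 98 tags at raised input signal, with a range from 19 to 400. The median input background was 7.67 tags at low and 49.4 tags at raised input signal. As the background defines both classes and is the divisor of the fold enrichment, the contrast in fold follows in part from the rule and is given as a description. Of all 4547 intervals, 8.23% had a background at or above 11.3 tags.

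**Figure D1:**
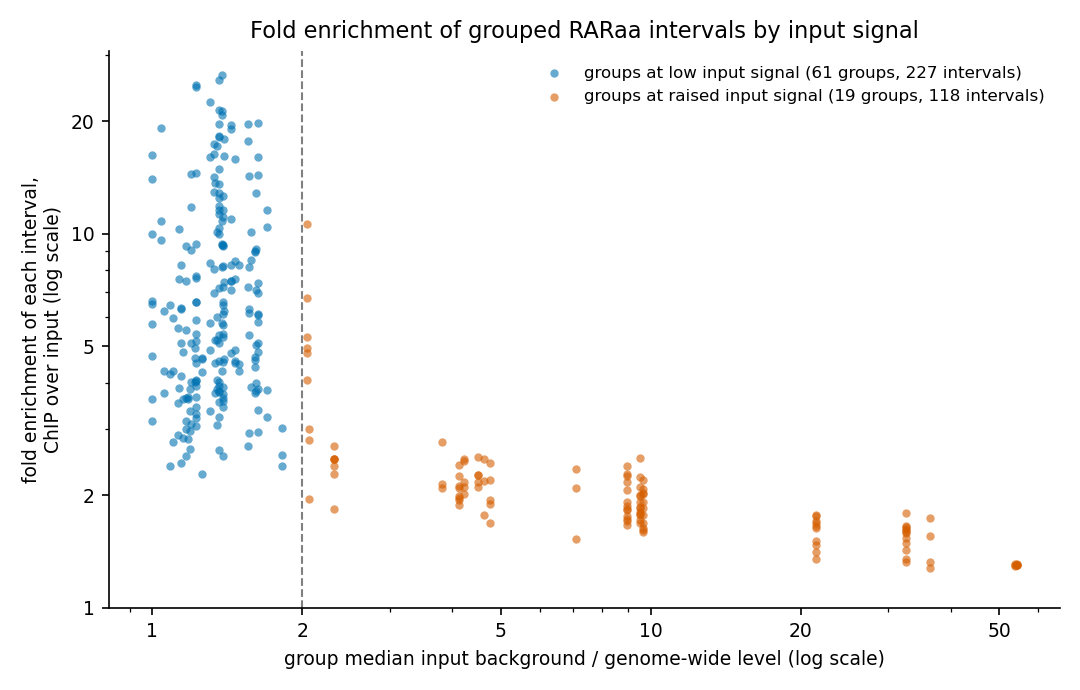
Fold enrichment of each of the 345 grouped intervals (vertical axis, ChIP over input, log scale) against the median input background of its group relative to the genome-wide level (horizontal axis, log scale), with groups at low input signal in blue, groups at raised input signal in orange and the threshold of 2 as a dashed line. Above the threshold, fold enrichments of 10 or more were found at 1 interval, and from 3 times upward none of 102 intervals exceeded 2.78.

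Intervals in groups at low input signal were set beside pairs and lone intervals. The strong share was 87.2% in these groups, 74.2% in pairs (395 of 532, 70.4 to 77.8%) and 57.4% among lone intervals (2105 of 3670, 55.7 to 58.9%), and the Wilson intervals of the 3 classes did not overlap. The median fold enrichment was 5.80 in the groups, 4.39 in pairs and 3.67 in lone intervals. Fold enrichments of at least 10 made up 24.7% of the groups' intervals, 9.77% of pairs and 5.61% of lone intervals. The order was the same when only intervals below the input threshold were kept in each class, with median folds of 5.84 over 220 grouped, 4.55 over 480 paired and 3.76 over 3473 lone intervals. These intervals treat sites as independent draws, although neighbours share a locus, and no test between the classes was made. Over all 80 groups, raised input included, 250 of 345 intervals were strong (72.5%, 67.5 to 76.9%), and this interval overlapped that of pairs. Their median fold was 4.01 (3.65 to 4.54), so over all groups it was not above the 4.39 of pairs. By number, most sites with a fold of at least 10 lay outside the groups. Of 315 such sites, 206 were lone, 52 were in pairs and 57 were in groups. The highest fold was 28.7 in pairs, 26.8 among lone intervals and 26.5 in groups.

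**Figure D2:**
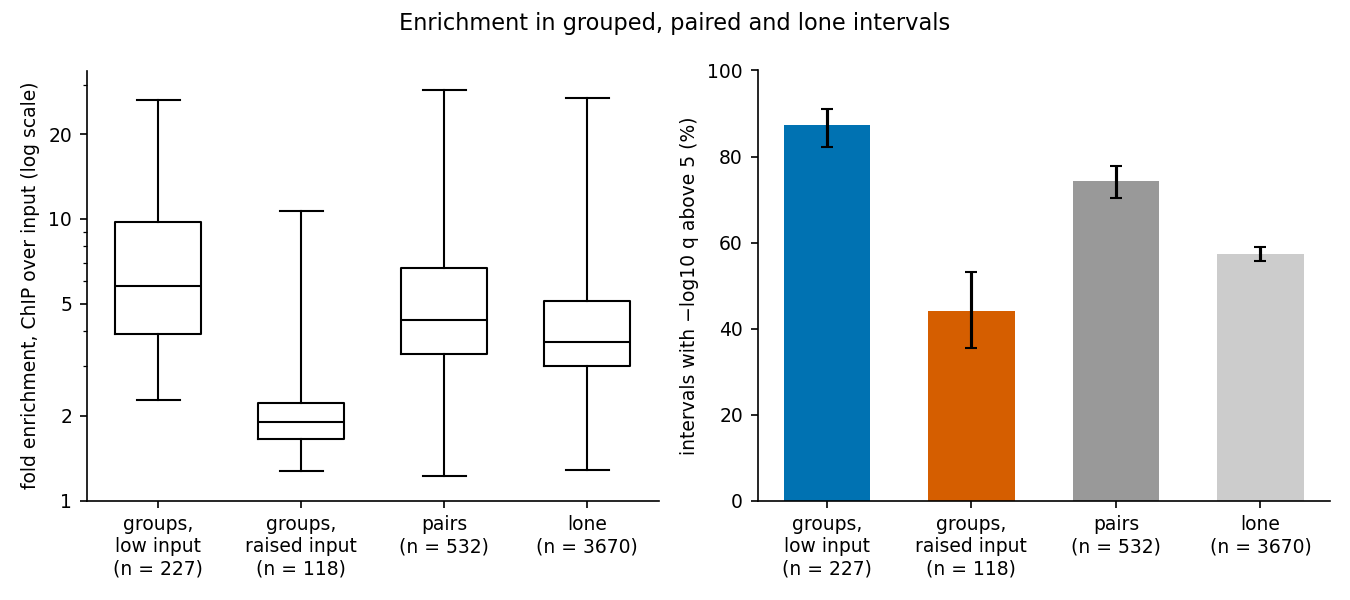
Left, fold enrichment over input (log scale) in groups at low input signal (n = 227 intervals), groups at raised input signal (n = 118), pairs (n = 532) and lone intervals (n = 3670), with the median as the line, the quartiles as the box and the full range as whiskers. Right, the share of strong intervals in the same classes with 95% Wilson intervals, which was 87.2% in groups at low input signal and 57.4% among lone intervals.

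Gene names were available for part of the groups. They come from the study's lists of sites at RA-regulated genes and of sites in conserved elements, matched by exact coordinates, and each site there is assigned to its nearest gene. Both lists were drawn from strong sites, so a group without a name may still lie at a gene, and the names do not support the heights. Names were found for 75 grouped intervals in 27 groups, 25 of them at low input signal. From a list of genes of the RA pathway, hox genes, pancreatic regulators and other genes, 30 had at least 1 matched site on chromosomes 1 to 25, with 86 sites in all. Of these sites 50 were in groups, 11 in pairs and 25 alone. Of all 352 matched sites, 75 were in groups, 63 in pairs and 214 alone, and of all 4547 intervals 345 were in groups. The 352 sites include the 86, so these counts overlap. Some listed genes had been named by the study from this same peak set, and hox genes were counted only where a site matched. Several close sites of the same gene also form a group by the joining rule itself. The counts are thus a description, and no preference of the listed genes for groups is read from them. Of the 41 listed genes other than hox genes, 20 had a matched site and 8 had one in a group, namely cyp26a1, cyp26b1, dhrs3a, dhrs3b, skap1, meis2b, hnf1ba and tshz1. The listed symbols meis1a and meis1b had no match, because the study's lists use meis1, and the 3 grouped sites of meis1 are not in these counts. The genes gata6 and nr2f1a had no match either, although the study reports sites in their loci. A listed gene without a match is thus not taken as a gene without a site.

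Enzymes that limit RA held several of the groups with the highest folds. The gene cyp26a1, which encodes a cytochrome P450 that degrades RA, had 4 named sites in groups and 3 in pairs. In the group at its promoter, chr12:9712464-9718227 (Zv9), the 4 pileups in order were 63, 39, 205 and 160 tags. The dominant summit had 205 tags (178 to 235.1) and was enriched 19.6-fold (17.0 to 22.5), and the last site followed with a fold of 17.7. The site with 39 tags lay at the highest background of the group, 13.8 tags, and had a fold of 2.70. A second group on the same chromosome, chr12:9645653-9667115, held 6 intervals over 21.5 kb with pileups of 62, 127, 63, 53, 76 and 29 tags, of which the fifth was assigned to cyp26a1 as an intergenic site. Its second summit, with 127 tags (105.9 to 151.1) and a fold of 14.3, stood clear of the other 5.

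The group with the most intervals at low input signal was found at the gene cyp26b1, which encodes another RA-degrading P450. It covered chr7:26429644-26451462 with 8 intervals, and 5 of them were named for cyp26b1 and placed in an intron of a neighbouring gene. The pileups were 22, 125, 50, 25, 24, 26, 204 and 194 tags, with folds of 3.07, 14.5, 5.89, 3.29, 3.45, 3.65, 24.98 and 24.6. The tall sites were thus the second and the last pair, and the other 5 lay between 22 and 50 tags. The sites with 22, 25 and 24 tags were not strong. Without the sites with 25 and 24 tags, the joining rule would split this group, so its size rests on them. The ratio of the highest to the lowest pileup, 9.27, was the largest among the 61 groups. The 2 tallest sites did not differ beyond counting error, with 204 (177 to 234) tags at the first and 194 at the second. A smaller group further along, chr7:26546345-26548464, was also named for cyp26b1 and had pileups of 41, 30 and 20 tags, with a highest fold of 5.95.

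The dhrs3 genes encode an enzyme that turns retinal back into retinol and so withdraws the precursor of RA. At dhrs3a, all 4 named sites formed 1 group, chr23:21959789-21970888, with pileups of 30, 112, 34 and 44 tags. The second summit, with 112 tags (92.2 to 134.8) and a fold of 12.6, stood clear of the rest, whose folds lay between 3.43 and 5.70. A group without a name began 36.9 kb further on, at chr23:22007747-22012496, with 69, 86 and 155 tags. At dhrs3b, an intergenic group on chr11:29432359-29440022 had 160, 184 and 108 tags with folds of 19.6, 21.3 and 11.6. All 3 sites of the dhrs3b group were tall, whereas the dhrs3a group had 1 tall site among low ones. Another 2 named sites of dhrs3b were in pairs and 2 were alone.

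**Figure D3:**
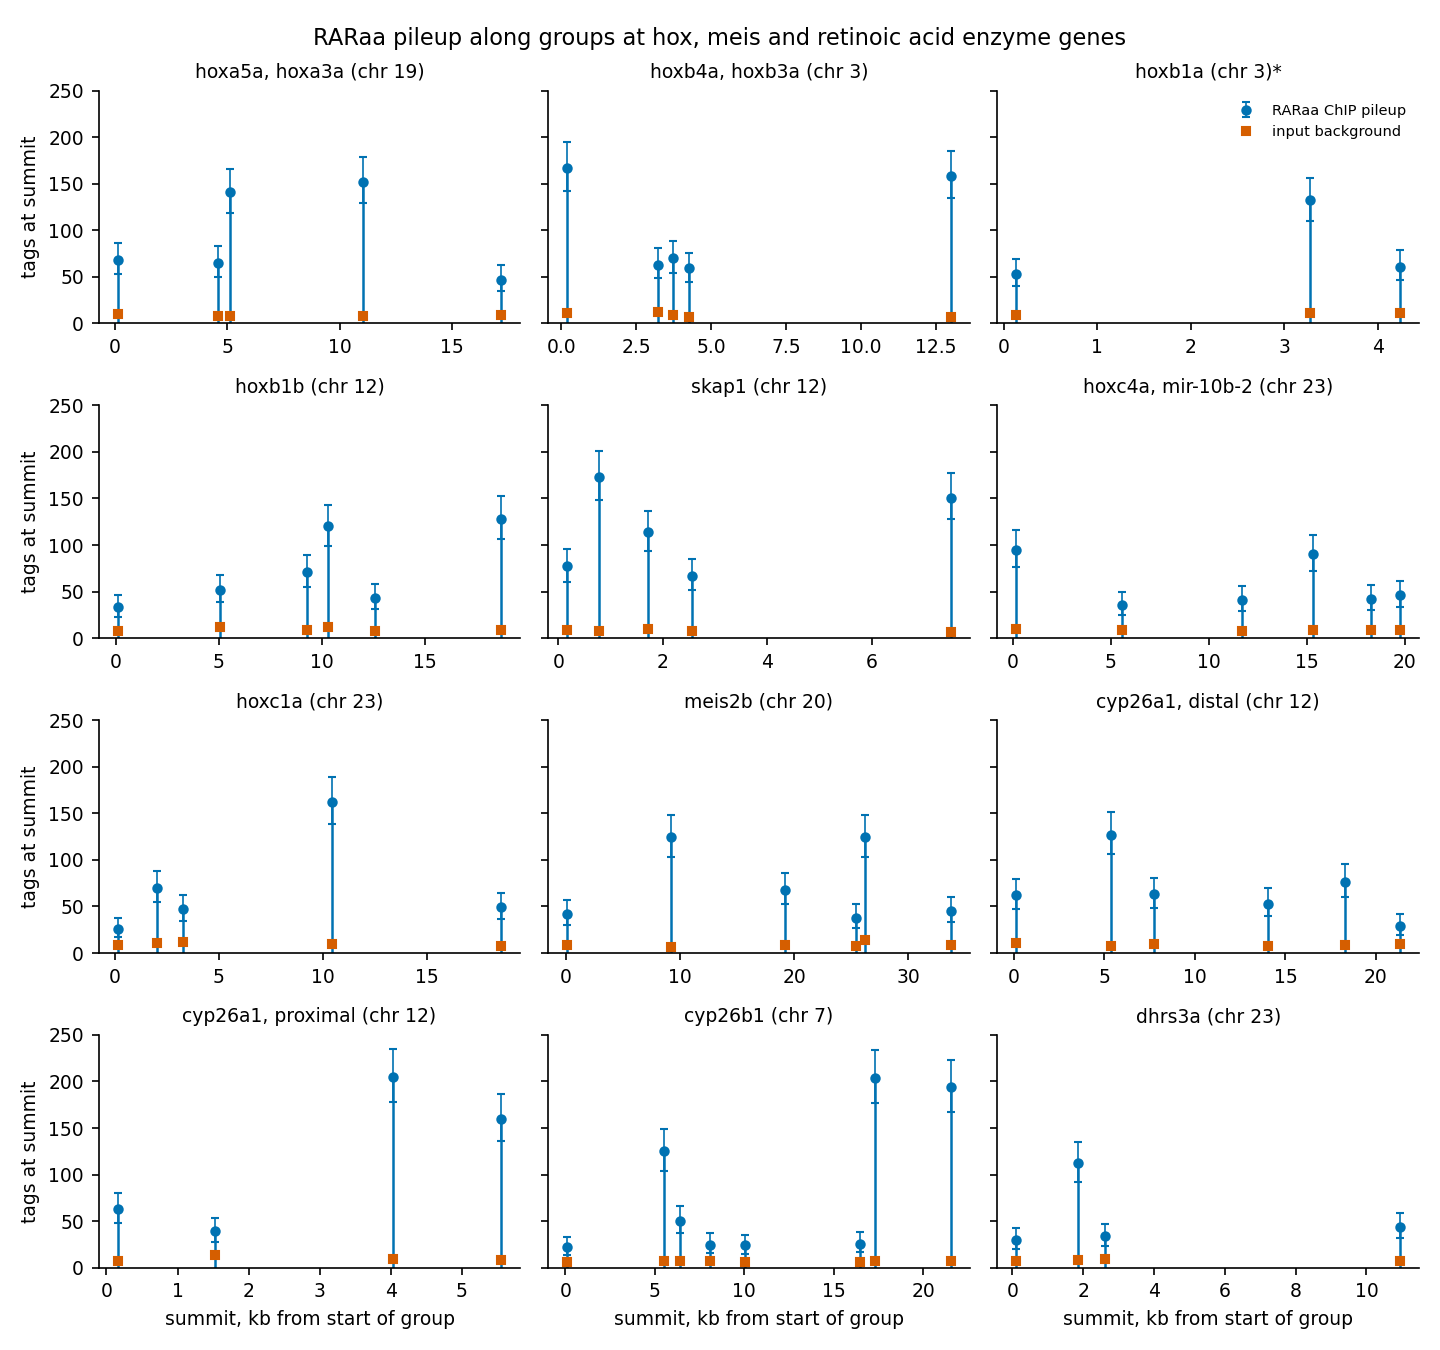
ChIP pileup (blue, vertical axis in tags, with exact 95% Poisson intervals) and input background (orange squares, same axis) at the summit of each interval in 12 groups named for hox, skap1, meis2b and RA enzyme genes, against the distance of the summit from the start of the group in kb. The pileups reached 205 tags, while the input background stayed at or below 13.8 tags, and the asterisk at hoxb1a marks the 1 group of the 12 on the raised side of the input threshold.

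Hox clusters held groups on 4 chromosomes. On chromosome 19, chr19:19224753-19242059 had 5 intervals, the first named for hoxa5a and the others for hoxa3a, all classed as promoter sites, a class that here reaches several kb from a start site. Their pileups were 68, 65, 141, 152 and 47 tags. The summits with 141 and 152 tags were the tall ones, with folds of 16.1 and 17.9 (15.2 to 21.0), and the others had folds between 4.64 and 7.45.

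On chromosome 3, the group chr3:24005590-24018799 ran from hoxb4a over dre-mir-10c, a microRNA gene within the hox cluster, to hoxb3a. Its pileups were 167, 63, 70, 59 and 158 tags, so the tall sites were the outermost ones, at hoxb4a and at hoxb3a. The highest pileup was not the highest fold, since the hoxb4a site had a background of 10.7 tags and a fold of 14.3 (12.2 to 16.6), and the hoxb3a site had a background of 7.05 tags and a fold of 19.7. The next group on this chromosome, chr3:24062768-24067160, had 3 sites, all named for hoxb1a, with 53, 132 and 61 tags. The summit with 132 tags (110.4 to 156.5) had a fold of 10.6 (8.92 to 12.6) and stood clear of the others, whose folds were 5.30 and 4.96. The median background of the hoxb1a group was 2.04 times the genome-wide level, so the rule placed it at raised input signal, although all 3 sites were strong.

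At and beside the second hoxb cluster, on chromosome 12, 3 groups lay within 64.0 kb, and these included all 14 intervals of that stretch. Only the first of them was named for a hox gene. The first, chr12:28704780-28723660, had 6 intervals with 33, 52, 71, 120, 43 and 128 tags, and the second to the fifth were promoter sites of hoxb1b. Its highest folds were 9.12 at the site with 120 tags and 12.8 at the last site. The second group began 9.44 kb later, at chr12:28733098-28740802, and was named for skap1, a signalling adaptor gene that lies beside the hoxb cluster. Its 5 pileups were 77, 173, 114, 67 and 151 tags, with folds of 8.27, 19.6, 10.9, 7.45 and 19.02, and the fifth site lay in an intron of skap1. No site of the skap1 group was below a fold of 7.45, and 3 were above 10. The third group, chr12:28766787-28768828, had no matched name and was the shortest of the 61, with 242, 107 and 78 tags over 2042 bp. Its first summit was the highest pileup of all groups at low input signal, with 242 tags (212.5 to 274.5) and a fold of 25.8 (22.6 to 29.2), and it stood clear of the others, which had folds of 12.5 and 10.4.

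On chromosome 23, chr23:36174586-36194476 held 6 intervals with 95, 36, 41, 90, 42 and 46 tags, of which the second was named for dre-mir-10b-2 and the third for hoxc4a. The summits with 95 and 90 tags, without names, were the highest, and no fold in the group exceeded 9.01. The following group, chr23:36226613-36245365, was named for hoxc1a at 4 of its 5 intervals and had 26, 70, 47, 162 and 49 tags. Here a single summit dominated, with 162 tags (138 to 189), 45.8% of the summed pileup and a fold of 15.98. The 2 groups at hoxc genes thus differed in how the pileup was spread, with coefficients of variation of 0.46 at hoxc4a and 0.75 at hoxc1a. The coefficient of variation is the standard deviation of the pileups divided by their mean.

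Meis genes, which encode homeodomain partners of Hox proteins, also held groups. At meis2b, 6 intervals spread over 33.8 kb, chr20:10273730-10307544, the longest span of the 61 groups. The pileups were 42, 124, 68, 38, 124 and 45 tags, and the second to the sixth were named for meis2b, from an intergenic site over an intron to the promoter. The 2 sites with 124 tags had folds of 15.8 (13.2 to 18.8) at the intergenic and 8.45 at the promoter site, where the background was 6.90 and 13.8 tags. As the pileups were equal, these folds differ through the background alone. Its counting error is not covered by the interval, and the difference was not tested. In an intron of meis1, chr13:5174760-5178140, the pileups were 99, 79 and 40 tags, with folds of 10.1, 8.51 and 3.90.

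Other genes for transcription factors with a group were hnf1ba, tshz1, TSHZ3 and nfia. The gene hnf1ba, a homeodomain regulator of the hindbrain, kidney and pancreas, had 2 named sites in chr15:15008590-15026037, where the pileups were 70, 31 and 87 tags and the highest fold was 9.33. In chr19:21862857-21870746, with 49, 58 and 30 tags, only the last site was named for the teashirt zinc finger gene tshz1. That site had a fold of 4.17, and the sites without a name had folds of 6.33 and 8.24. Another 2 named sites of tshz1 were alone. The related TSHZ3 had 2 groups 32.6 kb apart. In chr7:48277897-48297391 the pileups were 157, 74 and 70 tags, and in chr7:48329959-48334310 they were 32, 212 and 24 tags. The second TSHZ3 group was the most uneven of all 80, since its middle summit, with 212 tags (184.4 to 242.5) and a fold of 18.2, held 79.1% of the summed pileup. The gene nfia, a member of the nuclear factor I family, had a group within an intron, chr22:17169124-17175883, with 37, 50 and 77 tags and folds of 4.48, 4.29 and 8.27.

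Among the listed genes, not every one had its sites in groups. The 5 named sites of skap1, the 5 of meis2b, the 4 of dhrs3a and the 2 of hnf1ba were all in groups. Of the named sites of cyp26b1, 7 were in groups, 3 in pairs and 1 was alone. In contrast, the 3 sites of raraa and the 2 of rarab, which encode RA receptors, the 2 of nrip1a, a gene for a corepressor of nuclear receptors, and the 4 of insm1b, a zinc finger gene of endocrine cells, were all lone intervals. The 10 hox genes counted were those with a matched site, and of their 23 sites 19 were in groups, 1 was in a pair and 3 were alone, beside 75 in groups among all 352 matched sites. Those 75 include the 19, and a hox gene without a match was not counted.

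Other groups carried names of less known genes. In chr17:53390535-53402055 the first 2 of 3 sites were named for ANGEL1 (2 of 2), and the pileups were 126, 104 and 65 tags with folds of 19.1, 10.8 and 9.63. The background there was 5.64 tags at the first site, the genome-wide level itself, and no background among all 4547 intervals fell below that level. The fold of 19.1 was thus taken over the genome-wide level and not over a count of local input. Single named sites were found in chr5:51026791-51037923, for si:dkey-172m14.1, with 16, 37 and 46 tags, and in chr7:9423349-9431267, for CR759816.1, with 71, 38 and 67 tags. In chr3:24168490-24190870, 1 of 6 sites was named for si:ch211-84g22.1, and the pileups of 56, 89, 74, 66, 97 and 77 tags were close to each other, with folds between 6.11 and 11.6.

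High folds were also found in groups with no name. The highest of all grouped intervals, 26.5 (23.2 to 30.1), was the last of 4 sites in chr3:24330614-24336733, whose pileups were 72, 182, 91 and 231 tags. In chr13:13111391-13116769 the pileups were 45, 163 and 27 tags, and the middle summit had a fold of 22.5 (19.2 to 26.2) and 69.4% of the summed pileup. In chr5:51359519-51381094 the first of 5 summits was the tall one, with pileups of 200, 81, 37, 73 and 49 tags and a highest fold of 21.3. Over the 36 groups at low input signal without a name, 102 of 122 intervals were strong (83.6%, 76.0 to 89.1%). Their median fold was 5.19 (4.54 to 6.20), beside 4.39 (4.15 to 4.63) in all pairs, raised input included. Paired intervals below the input threshold had a median fold of 4.55 (4.36 to 4.82) and a strong share of 77.5% (73.6 to 81.0%). Both of these ranges overlapped those of the unnamed groups. In the 25 named groups, 96 of 105 intervals were strong (91.4%) and the median fold was 6.33, but the names were given to strong sites only.

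Within groups, the spread of the pileup varied. In groups at low input signal the dominant summit, the one with the highest pileup, held a median of 43.8% of the summed pileup (range 21.1 to 79.1%). In the 39 of them with 3 intervals the median was 45.2%, where an equal share is 33.3%. The dominant summit lies at or above an equal share by definition. The ratio of the highest to the second pileup had a median of 1.27. The Poisson interval of the dominant summit stood clear of that of the second summit in 16 of 61 groups and clear of that of the lowest in 44. In the other 45 the intervals of the first and second summits overlapped, and their difference was not tested. The dominant summit had the highest fold as well in 51 of 61 groups and was the first or last interval of its group in 35. As 39 of the 61 groups had only 3 intervals, most positions were first or last, so the count of 35 is not read as a trait of the groups. The coefficient of variation had a median of 0.41 and ranged from 0.068 to 1.19.

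Of the 10 most even groups of 4 or more, some were low and others tall. At the low end, in chr10:38768961-38789390 the pileups were 27, 20, 28 and 20 tags, in chr5:54890817-54914144 they were 24, 32, 39 and 31 tags, and in chr25:14956192-14978234 they were 31, 25, 49 and 36 tags. Their highest folds were 3.84, 4.67 and 5.41. Only 10 groups of 4 and 12 of 5 or more intervals were ranked, so the last of the 10 were not even in an absolute sense. The skap1 group was among the 10, with a coefficient of variation of 0.39. The last of the 10 was the group with the highest fold, chr3:24330614-24336733. Its coefficient of variation of 0.52 was above the median of 0.41 over the 61 groups. The 6 sites of chr3:24168490-24190870, of which 1 was named for si:ch211-84g22.1, were even at a higher level. Their coefficient of variation was 0.20, and their dominant share was 21.1%, the lowest share among the 61 groups. A group of 7 intervals over 33.1 kb, chr15:26546176-26579293, lay between, with 36, 25, 51, 21, 69, 41 and 32 tags, and 5 of its sites were strong.

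**Figure D4:**
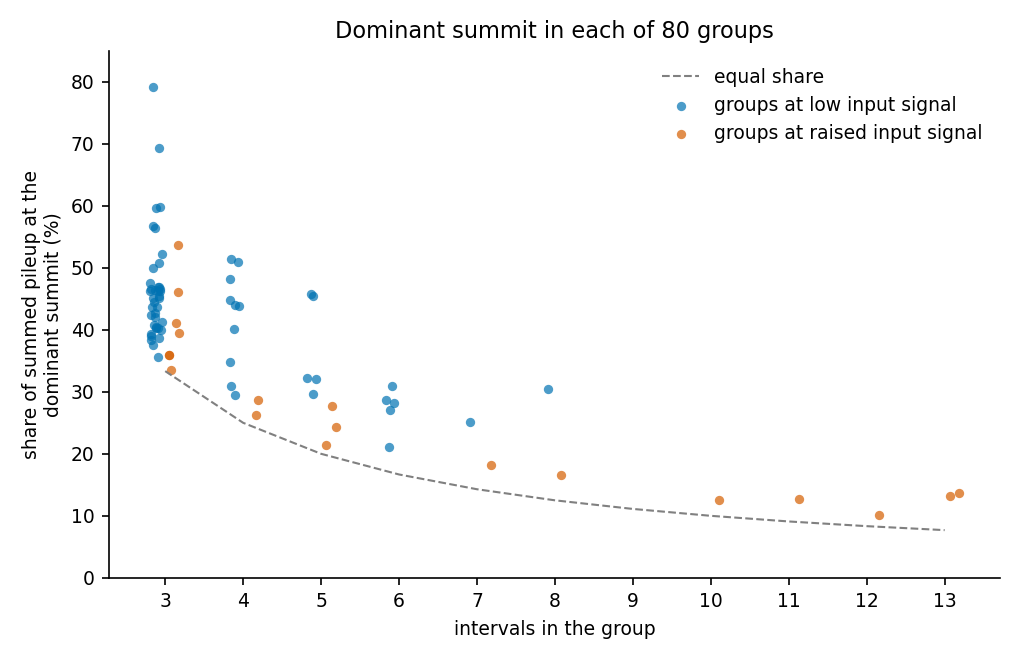
Share of the summed pileup held by the dominant summit (vertical axis, %) in each of the 80 groups, against the number of intervals in the group (horizontal axis), for groups at low (blue) and raised (orange) input signal. The dashed line is an equal share for every interval, and the groups at low input signal reach 79.1%.

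Sites in groups at low input signal lay a median of 3530 bp from the next, and 27 of 166 steps (16.3%) were under 1 kb. In groups at raised input signal the median step was 1142.5 bp, and 40 of 99 steps (40.4%) were under 1 kb. The median span was 9582 bp in groups at low and 11374 bp in groups at raised input signal. Intervals with more than 1 listed summit made up 9 of 227 (3.96%) at low and 21 of 118 (17.8%) at raised input signal. Over all 4547 intervals the share was 1.78%.

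The groups at raised input signal included those with the most intervals. In chr5:1187246-1203900, 13 intervals had pileups between 82 and 200 tags over backgrounds between 40.5 and 108 tags, and no fold exceeded 2.39. In chr20:55773969-55792084, another 13 intervals had pileups between 77 and 193 tags and folds up to 2.51. On chromosome 4, chr4:28001875-28017207 had 12 intervals with pileups between 175 and 338 tags and a median background of 183 tags, and chr4:28178743-28195652 had 11 with a median background of 54.4 tags. Near the start of chromosome 18, chr18:41612-52571 had 10 intervals with folds up to 1.77. In the groups on chromosomes 5 and 20 and in the first on chromosome 4, the highest pileup lay at the highest background of the group. The 5 groups had coefficients of variation between 0.18 and 0.27, below the median of 0.41 at low input signal.

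Some sites at raised input were at the upper limit of the measurement. As 1 tag is kept per position and strand, a pileup cannot exceed 400 tags. In chr24:11726505-11737878 the pileups were 392, 400 and 400 tags, and in chr16:16635249-16640489 they were 329, 399, 400 and 399 tags, with folds between 1.30 and 1.31. Since the input was scaled by 0.767, a site that meets the limit in ChIP and input alike comes out at a fold of 1.30. None of these 7 intervals was strong.

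**Figure D5:**
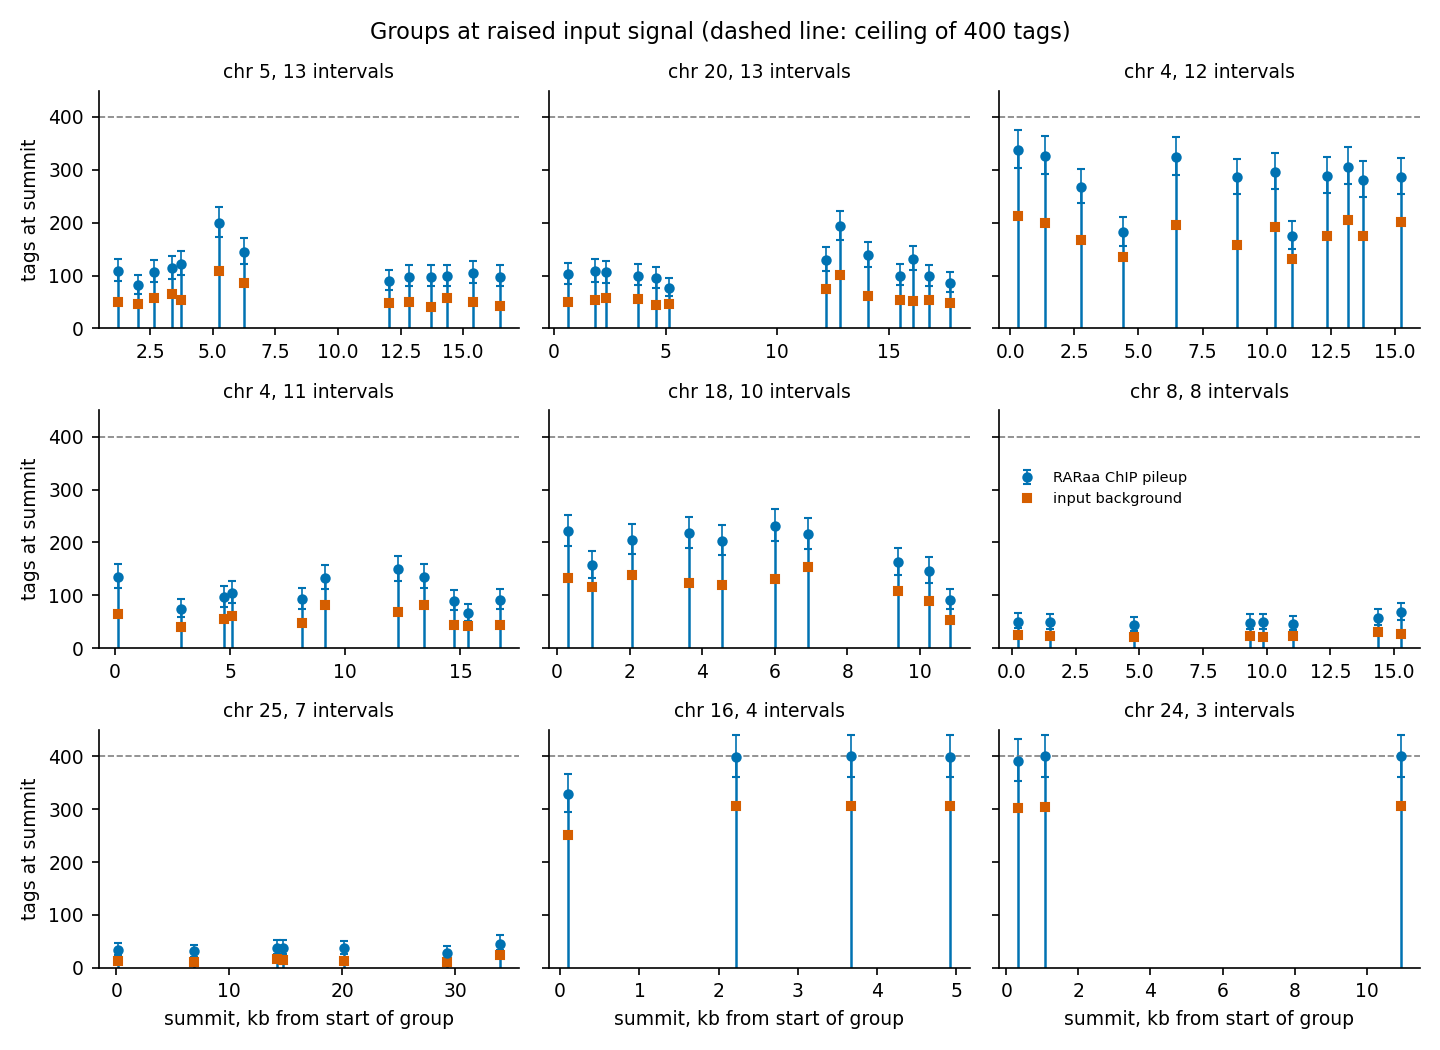
ChIP pileup (blue, vertical axis in tags, with exact 95% Poisson intervals) and input background (orange squares, same axis) at each interval of 9 groups at raised input signal, against the distance of the summit from the start of the group in kb. The input background is above the genome-wide level of 5.64 tags at every interval shown, and in the groups on chromosomes 16 and 24 the pileup meets the limit of 400 tags, drawn as a dashed line.

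No group lay between 1.82 and 2.04 times the genome-wide level. The group at low input signal with the highest background, chr11:41792083-41795151, stood at 1.82 times, with 27, 33 and 26 tags. Just above the threshold were the hoxb1a group and chr13:17446417-17454466, both at 2.04 times, followed by chr8:35893305-35907184 at 2.07 and chr25:25984023-26018120 at 2.31 times. The chromosome 13 group had 83, 41 and 56 tags and folds of 6.72, 4.79 and 4.06, and the site with 56 tags lay in an intron of LRMDA. This group and the hoxb1a group were the 2 groups at raised input signal in which every interval was strong. The group on chromosome 25 had 7 intervals with pileups between 29 and 46 tags, and none was strong. All other groups at raised input signal lay at 3.81 times or more. The median background of the hoxb1a group corresponds to 15 input tags. Taken as 1 count, its scaled Poisson interval runs from 6.44 to 18.96 tags and includes the threshold of 11.3 tags. A median over several sites is not a single count, so this interval is a rough guide only. The side on which these groups fell was not tested and is not taken as settled. On the same rough reading, groups on the low side of the threshold had intervals from 4.75 to 16.1 tags. Among them were those at hoxc4a (1.604 times), hoxb1b (1.62 times), hoxb4a and hoxb3a (1.63 times) and hoxc1a (1.63 times). With raised input set from 1.5 times, 29 groups would be on the raised side in place of 19.

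Some groups were also close to each other. Taking groups at most 250 kb apart together, 30 of the 80 groups fell into 11 stretches, of which 8 held groups at low input signal only. The joining distance itself parts some neighbours, since the skap1 group began 9.44 kb after the end of the hoxb1b group. The same closeness was not computed over all intervals, so it is not read as a trait of the groups. The stretch chr3:24005590-24336733, which includes hoxb4a, hoxb3a and hoxb1a, held 4 groups and 18 of its 26 intervals over 331 kb. A stretch of 6 groups was found on chromosome 8, chr8:35264859-35907184, with 29 of its 43 intervals in groups. All 6 were at raised input signal, and the highest fold there was 3.00. On chromosome 24, 2 unnamed groups within 39.3 kb had 144, 113, 32 and 38 tags in chr24:17709586-17721981 and 132, 34, 81 and 48 tags in chr24:17738353-17748925, with the tallest site at the start of each and all 8 sites strong.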

How the data were processed

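The authors aligned the reads to the Zv9 build (bowtie2) and called peaks against the input (MACS2, version 2.1.1.20160309, q-value 0.05). In the deposited file, the header gives tags of 41 bp, an extension to 200 bp, 1 tag kept per position and strand, and scaling to the smaller library, here a factor of 0.767 on the input. The deposited pileup is a signal in tags. The fold enrichment was deposited as the ratio of pileup to local background, with a pseudocount of 1. A Poisson model gave the deposited −log10 p-value and −log10 q-value of each line. The study describes paired-end reads and the header lists single tags, so the counting intervals would be too narrow if both mates were counted.

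Lines with the same coordinates were reduced to the one with the highest pileup (4750 intervals from 4858 lines), and 203 intervals on unplaced sequences were left out of the groups. The background was recovered from pileup and fold, and recomputed −log10 p-values differed from the deposited ones by at most 0.00427%. No background on chromosomes 1 to 25 lay below the genome-wide level of 5.64 tags, so that level acts as a lower limit. Medians carry 95% intervals from binomial ranks (Python 3.11.15, scipy 1.17.1). Joining was tested on simulated positions. Of 360 intervals in the study's gene lists, 352 matched by coordinates, and no value was taken from those lists.

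The rule for named groups took those at low input signal with 5 or more intervals, the 10 with the highest fold, the 10 most even (4 or more intervals) and 5 most uneven, and those with a gene name, besides the 10 groups at raised input signal with the most intervals and those beside the threshold. A further 2 groups that the rule takes are not reported here. The groups on chromosomes 16 and 24 and the unnamed group near dhrs3a were added after their values were seen. The members, lists and rules were chosen with earlier results of these data known.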

Additional observations from a re-analysis of the deposited data

How the results depend on the processing

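Over 13 alternative settings, 101 values were recomputed for 11 results, of which 71 stayed within the limits set for an unchanged value and 30 moved. None reversed. Joining at 5 kb gave 54 groups in place of 80, which the wide limit for counts still takes as unchanged. That setting gave 222 grouped intervals and 38 groups at low input signal, with a median span of 5217.5 bp. The median dominant share was 46.5%. Joining at 20 kb gave 134 groups, 575 intervals and 111 groups at low input signal, with a span of 20430 bp. Keeping strong intervals only gave 53 groups, 209 intervals, 7 groups at raised input signal and a median fold of 7.06 at low input signal, with strong shares of 100% in both classes by construction. Merging intervals less than 1 kb apart gave 49 groups, 191 intervals and 8 groups at raised input signal, a median fold of 2.09 there, and a span of 13210 bp at low input signal. Setting raised input from 1.5 times gave 29 groups, a median fold of 2.14 and a strong share of 56.4% at raised input signal. Setting it on the highest background in a group also gave 29 groups, with 2.11 and 56.9%. Without the pseudocount the median fold at low input signal was 6.52. Strong shares at low and raised input signal were 70.0% and 18.6% with −log10 q above 10, and 73.6% and 5.08% with a fold of at least 4. Under every setting that gave both classes, folds and strong shares other than the 100% by construction were higher at low input signal. Joining by facing ends, choosing the line with the highest fold, setting raised input from 3 times and leaving out groups with a gene name, the last chosen after seeing the data, moved no value. No paired analysis was possible because the ChIP and input libraries have no replicates, which also leaves none to omit. The Poisson intervals of the first and second summits overlapped in 45 of 61 groups at low input signal. The side of groups near the input threshold was judged only by a rough interval and is not settled.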

Other observations

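On unplaced sequences, which have no chromosome in the Zv9 build, the same joining rule gave 10 groups with 51 of 203 intervals. Of these groups, 3 were at low and 7 at raised input signal, and the median fold enrichment over the 51 intervals was 1.90. The 3 groups at low input signal had 3 intervals each, with highest folds of 7.60, 6.59 and 5.61 and 3, 3 and 2 strong intervals. The largest group at raised input signal had 13 intervals with pileups between 43 and 60 tags, and none was strong.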
